A study of Mus musculus with 9 samples.

Results

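miR-9-5p is the 5′ arm of a brain microRNA (miRNA), named mmu-miR-9-5p in the deposited table. It was taken by its mature name and is 1 of 1052 mature miRNAs counted after repeated rows were collapsed. The table holds 3 rows for it, 1 for each precursor. Small RNA was sequenced from papain-dissociated cells of embryonic lateral cortex (C57BL/6 mice, embryonic day 14.5), sorted on 2 fluorescent reporters called R and G in the sample titles. Proliferating progenitors (proliferating cells below) carried neither reporter, differentiating progenitors (differentiating cells) carried R without G, and newborn neurons carried G, with 3 libraries each and no other treatment or genotype given. The labels name neither the genes that drive the reporters nor the number of embryos behind a library, and nothing says that libraries came from separate litters, so p-values measure only the spread between these libraries.

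A miRNA is cut from a hairpin precursor and guides the Argonaute protein to messenger RNAs that pair with its seed, the stretch near its 5′ end, which lowers the output of those messages. miR-9 is conserved across animals and is strongly enriched in the vertebrate nervous system. In the developing cortex it is known to act on regulators of neural progenitors such as Tlx (Nr2e1), Hes1 and the neuronal-silencing factor REST, and REST in turn acts on miR-9 genes. It is therefore usually discussed both for progenitors and for young neurons.

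The mouse genome holds 3 miR-9 genes, and they give the same 5p sequence, which is why reads cannot be traced to a gene. Sequences and positions are those of RefSeq on GRCm38.p6, the assembly behind mm10. Each hairpin is shown 5′ to 3′ with the 23 bases of miR-9-5p in capitals.
Mir9-1: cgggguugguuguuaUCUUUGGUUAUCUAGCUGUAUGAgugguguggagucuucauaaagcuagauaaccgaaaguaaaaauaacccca
Mir9-2: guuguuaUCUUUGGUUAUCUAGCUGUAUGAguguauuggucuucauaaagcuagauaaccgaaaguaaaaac
Mir9-3: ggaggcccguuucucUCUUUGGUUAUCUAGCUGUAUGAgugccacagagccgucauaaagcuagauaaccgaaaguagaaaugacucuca
Mir9-1 spans chr3:88215598-88215686, Mir9-2 chr13:83738814-83738885 and Mir9-3 chr7:79505264-79505353, all on the plus strand. The miR-9-5p part is chr3:88215613-88215635, chr13:83738821-83738843 and chr7:79505279-79505301. The hairpins are 89, 72 and 90 bases long, and 16, 14 and 16 bases separate both arms. In the GENCODE annotation each gene lies within a long non-coding RNA gene on its own strand. Mir9-1 lies in an intron of Gm3764 and Mir9-3 in an intron of Mir9-3hg, while Mir9-2 lies in an exon of 1 transcript of C130071C03Rik and in an intron of another. On the minus strand Mir9-1 is covered by the miRNA gene Gm25641, which RefSeq also names Mir9b-1. The 3p arm, miR-9-3p, and miR-9b were not analysed here.

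The mature sequence of miR-9-5p and those of 6 of the 10 miRNAs next to it in abundance are given with the seed, bases 2 to 8 from the 5′ end, in capitals, because the seed decides which of them can be counted together.
miR-9-5p: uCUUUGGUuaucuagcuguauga
let-7i-5p: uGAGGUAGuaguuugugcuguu
let-7f-5p: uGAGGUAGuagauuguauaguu
miR-99a-5p: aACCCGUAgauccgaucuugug
miR-100-5p: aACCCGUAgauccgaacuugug
miR-30a-5p: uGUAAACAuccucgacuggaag
miR-26a-5p: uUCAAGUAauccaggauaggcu
Both let-7 sequences share a seed, as do miR-99a-5p and miR-100-5p. Among the 1679 mature mouse miRNA names in the RefSeq table, miR-9-5p alone had the seed CUUUGGU. A single name, miR-8098, differed from it by 1 seed base, U4A (miR-9-5p base first, counted from the 5′ end of the mature sequence), and it had no row here. Of the 1052 miRNAs, 892 had a sequence in that table, and they held 98.5% of the counts.

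The 3 rows of miR-9-5p repeated the same reads. In proliferating replicate 1 they held 876375, 876381 and 876387 counts, and in newborn neuron replicate 1, the largest library, 2543461, 2543472 and 2543417. The rows differed by 6 to 55 counts in a library, and the precursor with the most counts was not the same one in all 9 libraries. Of 31 miRNA names with several rows and at least 50 counts, the smallest row total was 0.9986 times the largest at the median, and 0.999994 times for miR-9-5p. The row with the largest total was kept. Summing the rows would have raised its share of the accession counts to between 78.3% and 83.2%, counting most reads 3 times.

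Counted once, miR-9-5p held more reads than all other miRNAs together in each of the 9 libraries. It had 876381, 722088 and 566253 counts in replicates 1 to 3 of the proliferating cells, 66.2%, 66.7% and 69.0% of the mature miRNA counts. In differentiating cells it had 899794, 707863 and 945294 counts, or 65.5%, 62.5% and 63.4%. In newborn neurons it had 2543472, 1265030 and 669015 counts, or 66.0%, 67.3% and 62.7%. The shares of both progenitor populations did not overlap, and those of the neurons overlapped with both, with replicate 3 beside the lowest differentiating library. For every read of another miRNA there were 2.06 ± 0.141 reads of miR-9-5p in proliferating cells, 1.77 ± 0.117 in differentiating cells and 1.89 ± 0.194 in neurons (SD, n = 3 each). Counting error was far smaller than the spread of replicates: the 95% Wilson intervals reached at most 0.10 percentage points to either side, and the SD of a population was 14.7 to 26.0 times its widest half-interval. These are shares of the rows in the table, where 5p names outnumber 3p names by 925 to 114 among rows with an accession (172 name no arm), so the share among all miRNA strands was not measured.

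**Figure D1:**
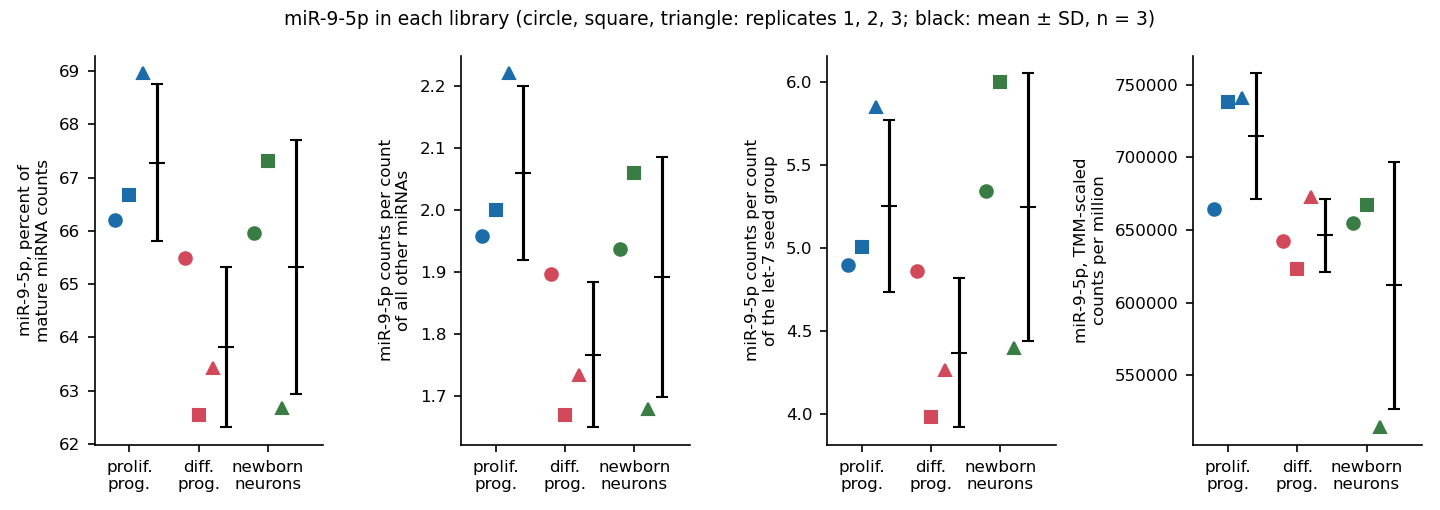
miR-9-5p in each of the 9 libraries on 4 scales: percent of mature miRNA counts, counts per count of all other miRNAs, counts per count of the let-7 seed group, and TMM-scaled CPM. Symbols are replicates 1 (circle), 2 (square) and 3 (triangle), black marks are means with SD (n = 3), and the vertical axes do not start at 0. Differentiating cells lie lowest by mean on the first 3 scales, whereas newborn neuron replicate 3 is the lowest library on the last, at 514097.

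By its mean the share was lowest in the middle population, 67.3% ± 1.47 in proliferating cells, 63.8% ± 1.51 in differentiating cells and 65.3% ± 2.38 in neurons (SD, n = 3 each). Differentiating cells were 3.46 percentage points below proliferating cells (63.8% against 67.3%), with p = 0.1 in a two-sided exact permutation test, the smallest value that 3 libraries against 3 allow. Of the 188 miRNAs tested, 68 (36.2%) likewise had shares that did not overlap between the progenitor populations. Neurons overlapped with both other populations, and their differences of 1.50 points above differentiating and 1.96 points below proliferating cells (65.3% against 63.8% and 67.3%) both gave p = 0.4 (exact permutation tests). They rested on single libraries: the first was 0.499 points without neuron replicate 2, 0.863 without differentiating replicate 2, 2.33 without differentiating replicate 1 and 2.82 without neuron replicate 3. The second was -0.643 points without neuron replicate 3, -1.12 without proliferating replicate 3 and -2.96 without neuron replicate 2. The order of proliferating over differentiating cells was thus the only one of the 3 without overlap. A share of counts also falls when other miRNAs rise. In sorted bulk samples a lower level can mean fewer cells that hold a miRNA or less of it per cell. From the share alone these cannot be told apart.

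On a scale that allows for differences in composition, no change of miR-9-5p was called. Counts were scaled to 1000000 per library (CPM) after correction by TMM factors, which align the bulk of the miRNAs between libraries. On this scale miR-9-5p stood at 664392, 738085 and 741238 CPM in proliferating cells, 642491, 623446 and 672962 in differentiating cells and 654570, 667419 and 514097 in newborn neurons. All 3 populations overlapped. The log2 change from proliferating to differentiating cells was -0.14 (SE 0.11, 95% interval -0.38 to 0.09), with an adjusted p of 0.459 by edgeR's quasi-likelihood test with Benjamini-Hochberg adjustment over the 188 miRNAs. In that comparison 16.0% of the miRNAs were called at an adjusted p under 0.05. As a fold, the interval ran from 0.767 to 1.07.

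From differentiating cells to neurons the log2 change was -0.08 (SE 0.11, 95% interval -0.32 to 0.16, edgeR adjusted p = 0.603), where 46.3% of the miRNAs were called. No direction can be given for this step, since the value was 0.03 with library totals in place of TMM factors and 0.10 with totals that leave miR-9-5p out. Between the ends of the lineage it was -0.22 (SE 0.11, 95% interval -0.46 to 0.01, edgeR adjusted p = 0.101), where 56.4% were called. Testing all 3 populations at once gave an edgeR adjusted p of 0.221 for miR-9-5p and called a difference for 58.5% of the miRNAs.

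A single library decided the call of the first step and of the overall test. Without newborn neuron replicate 3 the log2 change from proliferating to differentiating cells was -0.17 (SE 0.05, edgeR adjusted p = 0.0419) and the test over all 3 populations gave an adjusted p of 0.0357, so both were then called. Over the 18 alternatives the adjusted p of the first step ran from 0.0419 to 0.745 and that of the overall test from 0.0357 to 0.633. That neuron library had a TMM factor of 1.22, against 0.903 to 1.02 in the other libraries, and its share of 62.7% lay inside the range of the differentiating cells.

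**Figure D2:**
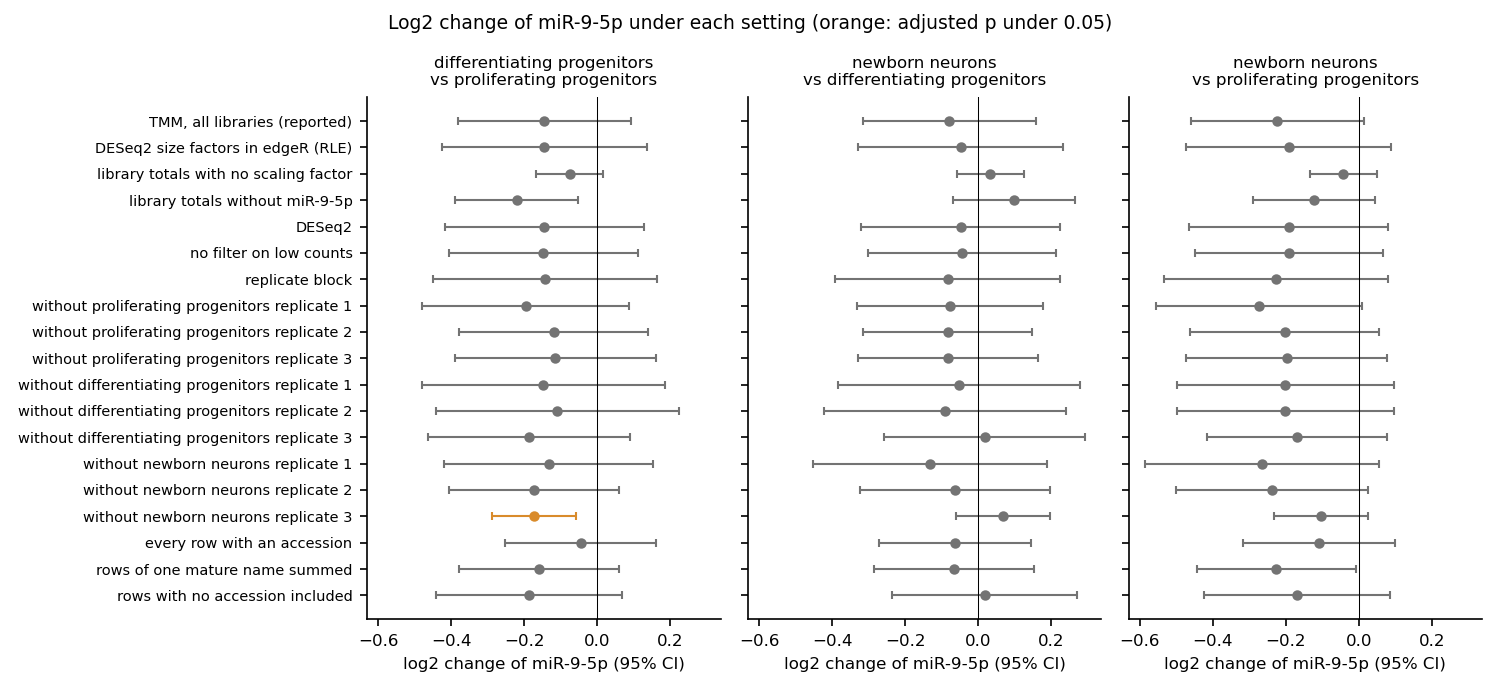
Log2 change of miR-9-5p in each of the 3 comparisons under the reported fit and 18 alternatives; points are edgeR or DESeq2 estimates and bars their 95% intervals. A single estimate is called, that of the first step without newborn neuron replicate 3 (orange, -0.17), and the second step has values on both sides of 0.

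Set among all 188 tested miRNAs, miR-9-5p lay in the lower part of absolute changes. Its absolute log2 change at the first step, 0.14, was larger than that of 47 of the 188 miRNAs (25.0%), while the median over all was 0.32. At the second step 17 miRNAs (9.04%) had a smaller absolute change than its 0.08, against a median of 0.53, and over the lineage 42 (22.3%) were below its 0.22, against a median of 0.68. The 188 include scarce miRNAs with less precise changes, such as miR-132-5p (mean 5.26 CPM, first-step SE 0.64). Among the 10 next most abundant, let-7i-5p, let-7f-5p, let-7g-5p, miR-30a-5p, miR-99b-5p and let-7a-5p had smaller absolute changes at the first step (0.0048 to 0.13). There miR-99a-5p, miR-26a-5p, miR-100-5p and let-7c-5p had larger ones (0.19 to 0.43). At the second step only let-7g-5p and miR-30a-5p of these had smaller ones. A scaling factor moves all miRNAs of a library alike, so the position of miR-9-5p relative to the median miRNA is nearly the same under any scaling. Under the 4 scalings miR-9-5p lay 0.22 to 0.23 below the median log2 change at the first step. It lay 0.01 below at the second and 0.17 to 0.18 below over the lineage. The scalings themselves moved the median of all miRNAs by up to 0.18 relative to TMM, the largest shift being that of library totals over the whole lineage.

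**Figure D3:**
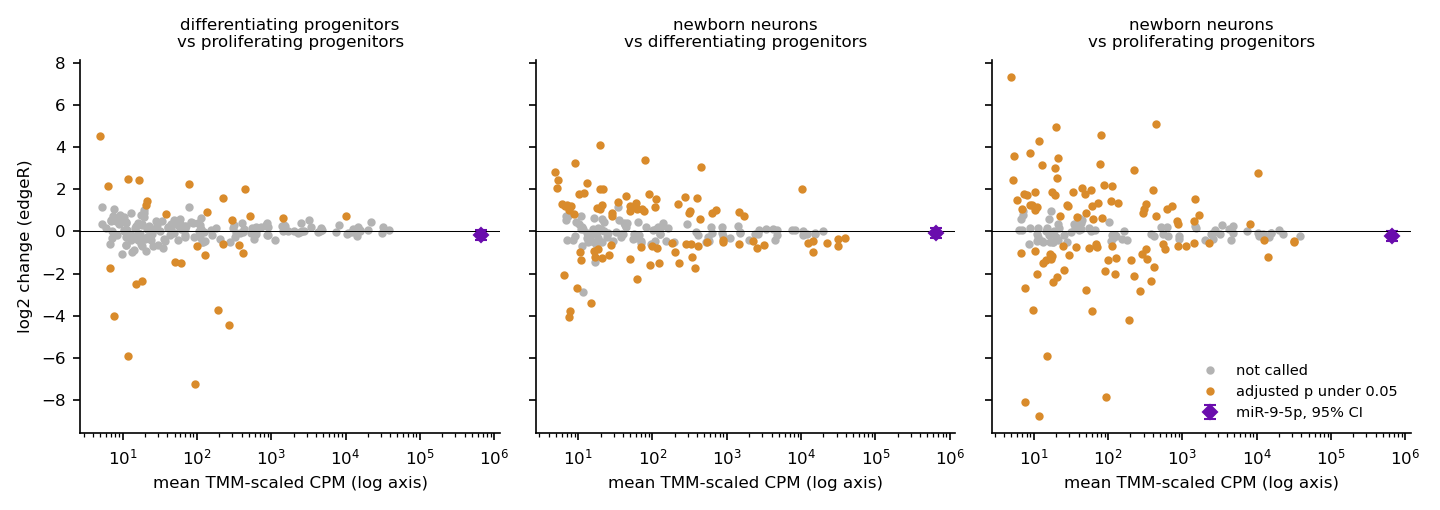
Log2 change (edgeR, TMM scaling) against mean TMM-scaled CPM on a log axis for the 188 tested miRNAs in the 3 comparisons; orange points have an adjusted p under 0.05. miR-9-5p (purple diamond with 95% interval) sits alone at the right, near 0, with log2 changes of -0.14, -0.08 and -0.22.

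The gap to the second most abundant miRNA was 14.6-fold to 19.2-fold. That miRNA was let-7i-5p in all 9 libraries, a member of the let-7 family, which is known for holding back progenitor and growth genes as cells mature. miR-9-5p had 18.0 ± 1.03 reads for each read of let-7i-5p in proliferating cells, 15.5 ± 0.963 in differentiating cells and 18.0 ± 0.995 in neurons (SD, n = 3 each). The differentiating cells, at 16.5, 14.6 and 15.3, lay below every library of both other populations, the nearest being neuron replicate 3 at 16.9. The log2 ratio was 0.22 lower than in proliferating cells (means of 15.5 and 18.0 reads) and 0.22 higher in neurons than in differentiating cells, each with p = 0.1 by exact permutation test.

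A ratio of 2 miRNAs of the same library needs no scaling factor, and 10 such ratios were compared over 3 pairs of populations, 30 comparisons in all. Depth cancels in such a ratio, while a change of either miRNA moves it. At the first step miR-9-5p was lower relative to 9 of the 10 miRNAs, without overlap for 5 of them, and miR-100-5p was the exception. Over all 187 other miRNAs tested, 41.2% of such ratios did not overlap at this step. At the second step it was higher relative to 8 of 10, without overlap for 5, against 47.6% of all. Over the whole lineage it was higher relative to 6 and lower relative to 4, without overlap for 2, miR-99b-5p and miR-100-5p, against 57.2% of all. As background for these directions, the edgeR log2 change of 58 of the 188 miRNAs tested was lower than that of miR-9-5p at the first step. At the second step 91 were lower and over the lineage 73, so the 8 of 10 at the second step do not hold for miRNAs in general. The 10 ratios share miR-9-5p as numerator and are not independent. The smallest p was 0.1, which the design sets, and adjusted over the 30 the smallest was 0.25 (exact permutation tests with Benjamini-Hochberg adjustment), so none passed 0.05.

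The ratio that moved most was to miR-100-5p, a member of the miR-99 family. Each read of it came with 39.7, 35.8 and 39.3 reads of miR-9-5p in proliferating cells, 48.0, 34.8 and 38.5 in differentiating cells and 72.6, 71.0 and 83.8 in neurons. The neurons lay apart from both progenitor populations, which overlapped. The log2 ratio was 0.98 higher in neurons than in proliferating cells (mean ratios of 75.8 ± 6.96 and 38.3 ± 2.13, SD, n = 3 each; exact permutation p = 0.1). miR-100-5p itself fell over the lineage by 1.19 (log2) in the edgeR fit, with SE 0.16 and adjusted p = 9.79e-06.

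For miR-99a-5p, the third most abundant miRNA by mean share and of the same seed, the ratio was 21.4 ± 2.18 in proliferating cells, 17.0 ± 1.66 in differentiating cells and 26.2 ± 2.93 in neurons (SD, n = 3 each). The middle population lay below the others without overlap. miR-99a-5p itself fell at the second step by 0.69 (log2) in the edgeR fit, with SE 0.16 and adjusted p = 0.00189. Against miR-30a-5p, a member of a family found in many tissues, the ratio overlapped between all 3 populations, at 45.6 ± 2.48, 41.4 ± 5.13 and 40.8 ± 2.88 (SD, n = 3 each).

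**Figure D4:**
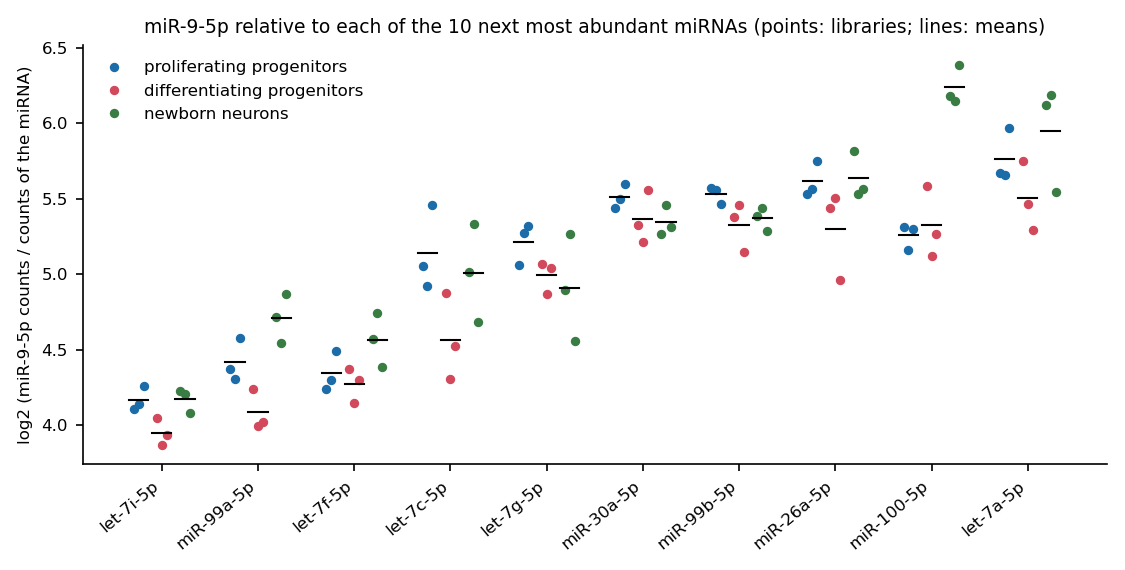
Log2 ratio of miR-9-5p counts to the counts of each of the 10 next most abundant miRNAs; points are libraries and black lines population means. For let-7i-5p and miR-99a-5p the differentiating cells lie below both other populations, and for miR-100-5p the newborn neurons lie above them, with mean ratios of 75.8 against 38.3 and 40.5.

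Read by seed, miR-9-5p stood alone while its nearest competitor was a family of 10. The 10 miRNAs of the let-7 seed group (GAGGUAG, let-7 members and miR-98-5p) together held 13.5%, 13.3% and 11.8% of the counts in proliferating cells, 13.5%, 15.7% and 14.9% in differentiating cells and 12.3%, 11.2% and 14.3% in neurons. miR-9-5p exceeded their sum 4.90-fold, 5.01-fold and 5.85-fold in proliferating cells, 4.86-fold, 3.98-fold and 4.26-fold in differentiating cells and 5.34-fold, 6.00-fold and 4.40-fold in neurons. The progenitor populations were separated by a narrow margin, 4.90 against 4.86, and neurons overlapped with both. The log2 ratio was 0.27 lower in differentiating than in proliferating cells (mean ratios of 4.37 and 5.25, exact permutation p = 0.1). From differentiating cells to neurons it was 0.26 higher (mean ratios of 5.25 in neurons and 4.37, exact permutation p = 0.2), and proliferating cells and neurons differed by 0.0087 (p = 1).

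The next seed group, ACCCGUA of miR-99a-5p, miR-99b-5p and miR-100-5p, held 4.50% to 7.35% of the counts of a library, and miR-9-5p exceeded it 8.63-fold to 13.9-fold. The group with seed GUAAACA, here miR-30a-5p, miR-30c-5p, miR-30e-5p and miR-384-5p, held 2.10% to 2.70%. That sum leaves out miR-30d-5p and miR-30b-5p, which have no entry in the RefSeq table. Their means were 10465 and 117 TMM-scaled CPM, so the family as a whole held more. The seed group whose distance to miR-9-5p differed most between libraries, among the 8 largest groups, was GGAAGAC of miR-7a-5p and miR-7b-5p, miRNAs known from neurons and endocrine cells. It held 0.287%, 0.282% and 0.361% of the counts in proliferating cells, 0.562%, 0.605% and 0.497% in differentiating cells and 2.63%, 2.20% and 2.65% in neurons. The 3 populations did not overlap, and miR-9-5p exceeded the group 237-fold at most and 23.7-fold at least.

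The weight of miR-9-5p sets how much of a library is left for everything else. All other miRNAs had 254902 counts in the smallest library, proliferating replicate 3, and 1313012 in the largest, neuron replicate 1. They made up 32.7% of the counts on average in proliferating cells, 36.2% in differentiating cells and 34.7% in neurons. A miRNA with a constant part of the remaining reads would thus appear 1.11 times as high in differentiating as in proliferating cells by its share of all counts, or 0.15 on the log2 scale. With library totals as the scale the median log2 change of the 188 miRNAs at this step was 0.15, and with totals that leave miR-9-5p out it was 0.0067. The other comparisons did not match in this way. From differentiating cells to neurons such a miRNA would shift by -0.06 (log2). The median there was 0.04 with library totals and 0.11 with totals that leave miR-9-5p out. Over the lineage the shift would be 0.08, and the medians were 0.13 and 0.05. What moved the medians was not tested. The effective number of miRNAs, the exponential of the Shannon entropy, was 5.30 to 7.13 per library with miR-9-5p and 27.3 to 32.9 without it. Between 13 and 14 miRNAs reached 1% of the counts of a library.

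**Figure D5:**
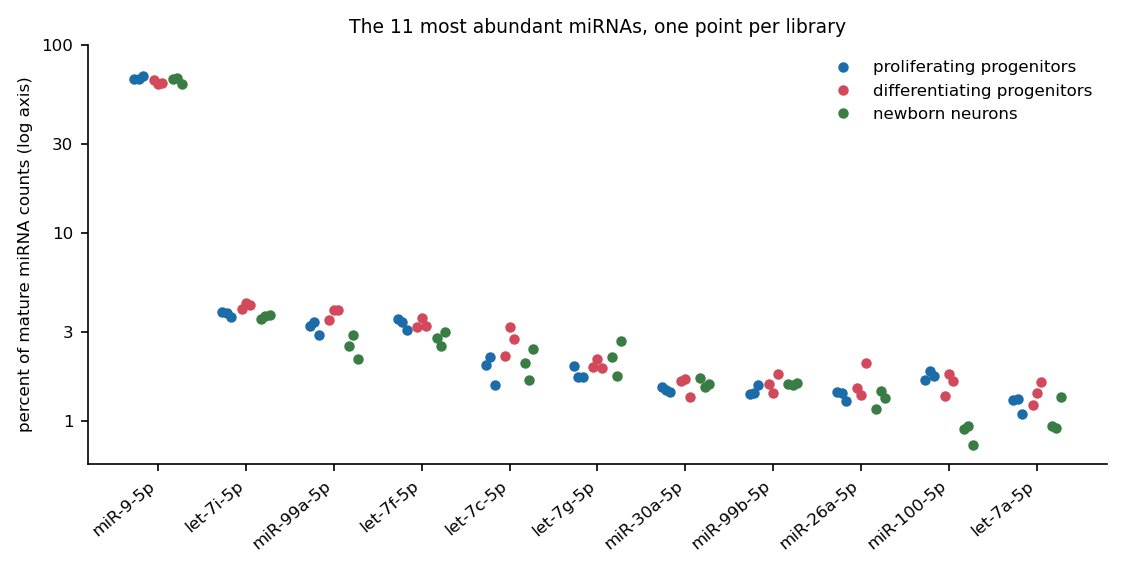
Percent of mature miRNA counts, on a log axis, of the 11 most abundant miRNAs by mean share, with 1 point per library coloured by population. miR-9-5p lies between 62.5% and 69.0%, let-7i-5p next to it between 3.52% and 4.27%, and the newborn neurons lie lowest for miR-100-5p.

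The miRNAs whose TMM-scaled log2 CPM followed that of miR-9-5p most closely over the 9 libraries were miR-21a-5p (Pearson r 0.95), miR-192-5p (0.94), miR-130b-5p (0.89), miR-30d-5p (0.86) and miR-149-5p (0.81). They were the 5 highest of 81 miRNAs with at least 100 CPM, whose median r was 0.04. All points share the library's scaling factor, so that a library with a large factor lowers every miRNA in it. Without neuron replicate 3 the values were 0.83, 0.77, 0.81, 0.54 and 0.65. Of the 5, only miR-21a-5p and miR-130b-5p were then still among the 5 highest, and miR-143-3p, miR-129-5p and miR-503-5p took the other places. By the root mean square difference of centred log2 values, miR-21a-5p was also close in size of change, at 0.05, whereas miR-149-5p was at 0.23 and fell over the lineage by 0.69 in the edgeR fit (log2, SE 0.16, adjusted p = 0.00125). miR-130b-5p, at 0.22, fell by 0.70 (log2, SE 0.17, edgeR adjusted p = 0.00174). The log2 changes of miR-21a-5p were -0.08, -0.16 and -0.24 in the 3 comparisons, none of them called, next to -0.14, -0.08 and -0.22 for miR-9-5p.

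The spread of miR-9-5p between replicates depended on the scale. The coefficient of variation of its share, averaged over the 3 populations, was 2.73%, that of let-7i-5p 3.29%, and those of the 9 other miRNAs among the 11 most abundant 6.42% to 17.6%. A miRNA that holds most of the total can vary little as a share of that total. In neurons alone its coefficient was 3.65%, above those of let-7i-5p (2.64%) and miR-99b-5p (1.50%). On TMM-scaled CPM the coefficients of miR-9-5p were 6.09%, 3.86% and 13.9% in the 3 populations, with a mean of 7.95%. By that mean let-7f-5p (6.46%), let-7i-5p (6.64%) and let-7g-5p (7.28%) varied less.

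Several miRNAs discussed beside miR-9 in cortical neurogenesis had called changes larger than its own. Of 23 listed, 17 were tested, all of them as 5p arms. Names were matched without regard to the arm, and a 5p row does not measure the 3p arm. miR-128 had no row, and the 5p rows of the other untested names held at most 0.00059% of the counts on average. From proliferating to differentiating cells 4 rose, 2 fell and 11 were not called (35.3% called, against 16.0% of all tested), with a median log2 change of 0.25 against 0.08 over all. At the second step 5 rose, 6 fell and 6 were not called (64.7% against 46.3%; median -0.10 against -0.06). Over the whole lineage 8 rose, 4 fell and 5 were not called (70.6% against 56.4%), while the median was below 0, at -0.11 against -0.05. Under the 4 scalings no called member changed direction. The calls of miR-134-5p and miR-92b-5p at the first step (highest edgeR adjusted p 0.0566 and 0.0937) and of miR-26b-5p at the second step and over the lineage (0.0934 and 0.0608) were lost under at least 1 of them, as was a call of let-7a-5p described with its values. The list was drawn up with earlier results of these data known, so its counts only describe the company of miR-9-5p.

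The 2 largest rises over the lineage within the list were those of miR-7b-5p, from 37.9, 30.7 and 31.4 CPM in proliferating cells to 1279, 1113 and 1084 CPM in neurons (edgeR log2 change 5.10, SE 0.21, adjusted p = 3.85e-12), and of miR-124-5p. The 3p arm of miR-124 is the strand usually held to promote neuronal fate; the table row is the 5p arm. It rose from 52.3, 82.8 and 38.0 CPM to 317, 484 and 503 CPM (edgeR log2 change 2.90, SE 0.33, adjusted p = 1.01e-06). The neurons lay above the proliferating cells in every library for both.

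The 2 largest falls were those of miR-92b-5p and miR-129-5p. miR-92b-5p, whose 3p partner belongs to the miR-25 and miR-92 seed family of progenitors, fell from 371, 312 and 391 CPM to 82.1, 82.8 and 83.8 CPM (edgeR log2 change -2.11, SE 0.20, adjusted p = 1.11e-07). miR-129-5p fell from 594, 708 and 764 CPM to 208, 253 and 178 CPM (edgeR log2 change -1.69, SE 0.19, adjusted p = 7.92e-07). Of the 2 most abundant listed miRNAs, let-7a-5p fell by 0.42 over the lineage (log2, SE 0.14, edgeR adjusted p = 0.0205), a call lost with library totals (log2 change -0.21, edgeR adjusted p = 0.268), and miR-125b-5p, at -0.14 (SE 0.13, edgeR adjusted p = 0.357), was not called.

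Total mature miRNA counts were 821155 to 3856484 per library, and the neuron libraries spanned most of that range. Marker miRNAs of other cell types were measured as summed levels, given in this paragraph as plain CPM of the library total without TMM factors. The erythroid pair miR-451a and miR-144 had 242 to 329 CPM in proliferating cells and at most 2.91 CPM in other libraries, and the mural list with miR-143 had 436 to 538 CPM against 21.5 to 40.9. Most of the mural sum was miR-143-3p in every library. Within that list miR-145a-5p had at most 6 counts in a library and miR-199a-5p at most 7. The haematopoietic list ran from 0.778 to 30.5 CPM and endothelial miR-126a from 5.32 to 24.4 CPM, both highest by their sums in proliferating cells. Within the haematopoietic list miR-146a-5p went the other way between the progenitor populations, with 5, 12 and 4 counts in proliferating and 13, 19 and 26 in differentiating cells. In neurons 1 of the 2 erythroid and 1 of the 4 haematopoietic miRNAs had any count. The neuronal list (3 of 4 in the table) stood at 1119 to 1241 CPM in proliferating cells, at 1187 to 1788 CPM in differentiating cells and 2204 to 2304 CPM in neurons. Both progenitor ranges of this sum overlapped, and most of it was miR-218-5p. Alone, miR-124-5p held 0.0035% to 0.0075% of the counts in proliferating and 0.0091% to 0.0251% in differentiating cells, without overlap. In the edgeR fit it rose by 1.58 between them (log2, SE 0.33, adjusted p = 0.00238). The shares of miR-218-5p and of miR-138-5p did overlap. None of the non-neural lists exceeded 0.0538% of the counts of a library. A share of counts held by a few markers does not give the share of such cells or of their RNA. The part of such cells in the difference of 3.46 percentage points in miR-9-5p between the progenitor populations was not tested.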

How the data were processed

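Small RNA counts of 9 libraries, 3 per population, were analysed. The authors deposited 1 table of raw read counts with 1433 rows; per the submitters' processing notes mm10, bcl2fastq 1.8.2 and DESeq2 were used, while the aligner and counter are not given in the sources used here. The 222 rows without a database accession were left out, 1 row per mature name (the largest) was kept, and names with at least 50 counts that differed by at most 2% were merged, which gave 1052 miRNAs, 560 of them with a count. No count column was left unmapped.

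The whole table was fitted with edgeR 4.0.16 in R 4.3.3 (filterByExpr, TMM, quasi-likelihood test, 9 libraries, no covariate), which tested 188 miRNAs and was tested on simulated data. P-values were adjusted by Benjamini-Hochberg at 0.05, and SEs derived from the F statistic. Log2 CPM used a prior count of 2. Two-sided exact permutation tests were run on shares and ratios per library (scipy 1.17.1). Named miRNAs are miR-9-5p, the 10 next in abundance, the 5 most alike with at least 100 CPM, and 6 of a list on neurogenesis (2 most abundant, 2 largest rises, 2 largest falls). The members and lists were chosen with earlier results of these data known. Wilson intervals on shares cover counting error only, whereas the edgeR intervals include the spread between libraries. Deviations from the population means correlated above 0.1 in 4 of 9 same-numbered pairs and 1 of 18 others, so pairing by number is not excluded. Replicate numbers were not used as pairs in the reported fit or in the permutation tests. A fit with a replicate block is among the alternatives.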

Additional observations from a re-analysis of the deposited data

Results flagged for a closer look

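The 222 rows without a database accession, which entered no comparison, held up to 0.352% of the mature miRNA counts of a library, and 97 of them had more than 3 counts in some library. They carry no sequence, so none could be set beside miR-9-5p. Including them in the fit left miR-9-5p uncalled in each comparison.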

How the results depend on the processing

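Over 18 alternatives, the log2 change of miR-9-5p stayed below 0 at the first step (-0.22 to -0.05) and over the whole lineage (-0.27 to -0.04). It was called once, without newborn neuron replicate 3 (-0.17, edgeR adjusted p = 0.0419), which also brought the joint test to an adjusted p of 0.0357. Leaving out 1 library at a time gave -0.20 to -0.11 at the first step, -0.13 to 0.07 at the second, -0.27 to -0.10 over the lineage and 0.0357 to 0.466 for the joint adjusted p. At the second step the sign turned with library totals (0.0335), totals without miR-9-5p (0.0987), rows without an accession included (0.0178), without differentiating progenitor replicate 3 (0.0182) and without newborn neuron replicate 3 (0.0684); the cause was not tested. The share difference between progenitor populations ran from -4.29 to -2.42 percentage points over 9 alternatives. Library totals moved the split of higher against lower calls from 45 and 42 to 46 and 29 at the second step and from 56 and 50 to 63 and 40 over the lineage; totals without miR-9-5p gave 10 and 14 at the first step (15 and 15 with TMM) and 49 and 26 at the second. With the replicate block the 3 log2 changes were -0.14, -0.08 and -0.23 (edgeR adjusted p = 0.532, 0.672 and 0.196), and no call of miR-9-5p changed. Of the 9 libraries, 2 correlated best with their own number in both other populations. The number of miRNAs called at the first step, 30, ran from 18 (without proliferating progenitor replicate 1) to 37 when 1 library was left out. Counting error of miR-9-5p was small beside the spread between libraries. The edgeR fit shares 1 estimate of that spread over all 9 libraries, so a library outside a comparison also affects its standard error.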

Other observations

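The standard error of miR-9-5p depended on the scale and on a single library. At the first step it was 0.11 with TMM factors, 0.04 with library totals and 0.05 with TMM factors but without newborn neuron replicate 3; that library is in neither population of the step, and leaving it out also moved the estimate from -0.14 to -0.17. With totals that leave miR-9-5p out, the first step had a log2 change of -0.22 (SE 0.08, edgeR adjusted p = 0.0638).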
